A study of Saccharomyces cerevisiae with 18 samples.

Results

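The mitochondrial ribosomal proteins are the nucleus-encoded building blocks of the ribosome that works inside mitochondria. Members were taken by gene symbol: all S. cerevisiae probe sets annotated as MRPL, MRPS, MRP or RSM followed by a digit, without MRP8, which is not a ribosomal protein. This gave 65 genes with 1 probe set each, of 5449 S. cerevisiae genes tested through 5498 probe sets. Of these, 37 belong to the large subunit and 28 to the small subunit. The assignment to a subunit came from textbook knowledge and not from the arrays.

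The mitochondrial ribosome descends from the ribosome of the bacterial ancestor of the organelle. In yeast it makes a handful of very hydrophobic proteins encoded by mitochondrial DNA, nearly all of them core subunits of the respiratory chain and the ATP synthase. Its RNAs and the protein Var1 are made inside the organelle, while the other ribosomal proteins are translated in the cytosol and imported. Many of the messenger RNAs for these proteins are known targets of Puf3, an RNA-binding protein that acts on transcripts of mitochondrial proteins.

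The study compared 3 strains of baker's yeast in batch fermentation with and without oxygen, on 18 Affymetrix Yeast Genome 2.0 arrays in 6 groups of 3. All strains derive from the host CEN. PK 530-1C and carry a 2 µm plasmid with POT1, the fission yeast triose phosphate isomerase gene, as its marker. The host is known to lack its own TPI1, so the plasmid restores glycolysis in every group, the controls included. AAC expresses amylase with the alpha factor leader from the TPI1 promoter and is labelled as the high producer. AAP expresses amylase with the same leader from the TEF1 promoter and is labelled as the lower producer. NC has the plasmid with the TPI1 promoter and no amylase. The groups are therefore AAC, AAP and NC grown anaerobically and AAC, AAP and NC grown aerobically, all in SD-SCAA medium at 30 °C and harvested near an optical density of 1. Arrays within a group are biological replicates by their titles, and the number of transformants is not stated. Because transcripts were measured in bulk RNA at a fixed input of 250 ng, a change in one class of transcripts cannot be told apart from a change in the total RNA to which it was scaled.

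By TIR1 and CYC1 the arrays read as their oxygen labels say. TIR1, a cell wall mannoprotein gene of anaerobic cells, lay between 11.9 and 12.1 (group means, log2 signal) in the anaerobic groups and between 5.65 and 5.76 in the aerobic groups. For CYC1 the group means were 5.26 to 5.59 and 11.2 to 11.3. HES1, also chosen as a check, differed less by oxygen in AAC. Its group means were 9.46 to 9.85 in the anaerobic groups, 5.53 in aerobic NC and 9.23 in aerobic AAC. The host's TPI1 read 5.34 to 5.47 as group means, under the background level of 5.58 set from probe sets for fission yeast genes. One array stood apart. The array labelled AAP aerobic replicate 3 correlated at 0.993 with the AAC aerobic arrays and at 0.978 with the other AAP aerobic arrays. Its fission yeast tpi1 signal was 9.24, against 12.42 and 12.38 on AAP aerobic replicates 1 and 2, and 9.32, 9.41 and 8.97 on the AAC aerobic arrays. Its HES1 signal was 9.24, against 5.55 and 5.54 on AAP aerobic replicates 1 and 2. Values without it stand beside most of the summaries and calls that rest on aerobic AAP.

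All 65 transcripts were measurable. Their log2 signals ran from 6.62 to 9.96 over all arrays, and no member had a mean below background. The 46 probe sets for fission yeast mitochondrial ribosomal proteins on the same arrays had means from 4.91 to 5.54, at or below background. They are among the fission yeast probe sets that set the background, so this is no check of specificity. The genes lie on 14 chromosomes, with 12 on chromosome IV and 9 on chromosome XIV. The only neighbouring pair is MRPS12 and RSM19 on chromosome XIV, so the members are 65 nearly separate loci. Signals of different probe sets are not compared here as levels.

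Without oxygen, every one of the 65 transcripts was lower. Over the mean of the 3 strains, anaerobic minus aerobic, 37 of 37 large subunit and 28 of 28 small subunit members fell past an adjusted p of 0.05 (limma, two-sided, Benjamini-Hochberg adjustment over all 5498 probe sets), where 30.4% of all probe sets were called lower. The median log2 difference was -0.61 in the large subunit, a 1.52-fold fall, and -0.63 in the small subunit, a 1.55-fold fall. Over all probe sets it was 0.00. The falls were of similar size throughout: 43 of the 65 lay between 0.5 and 0.8 on the log2 scale, 7 were larger, 15 were smaller, and 1 exceeded 2-fold. Only 5.80% of all probe sets fell as far as the member median. For 56 of the 65 members all anaerobic arrays lay below all aerobic arrays, against 10.7% of all probe sets.

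**Figure D1:**
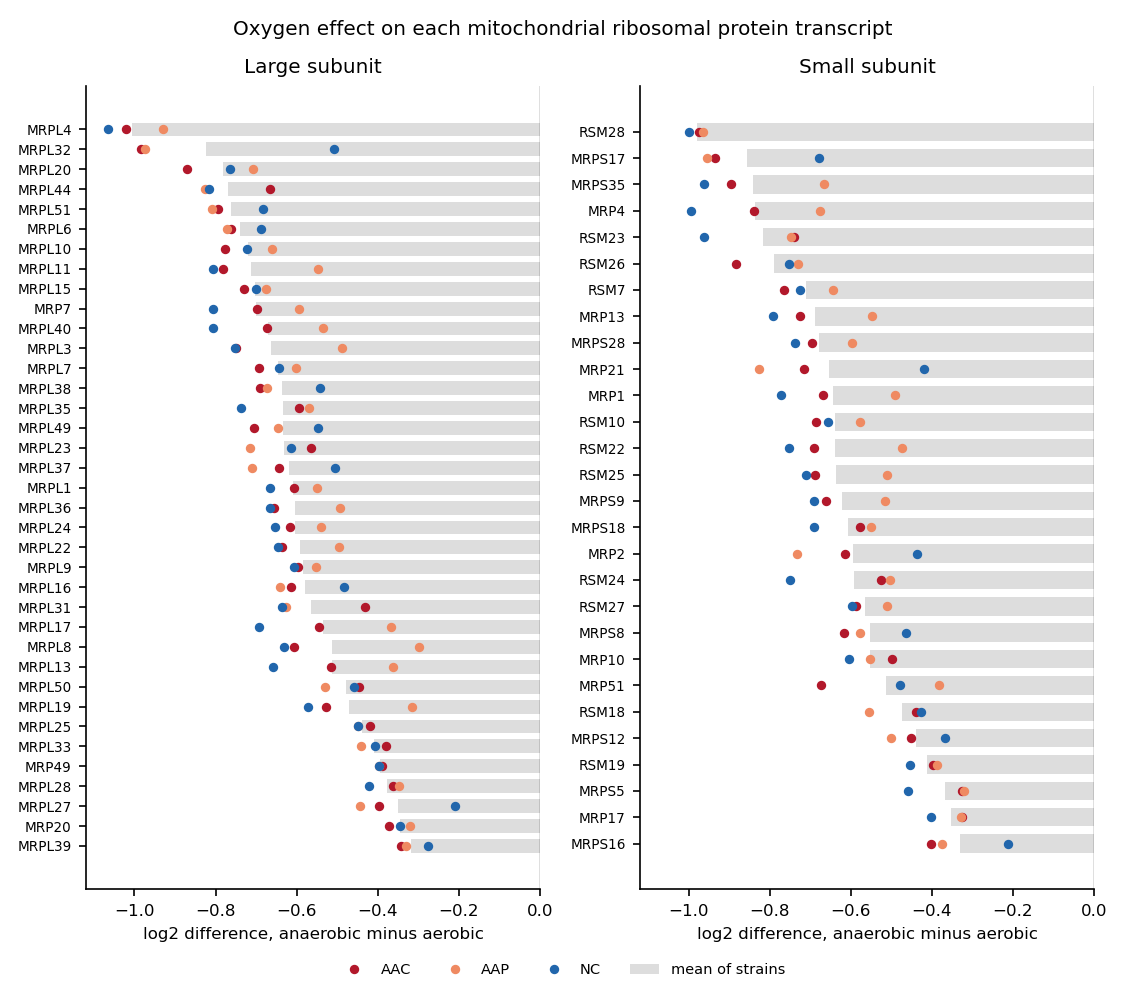
Log2 difference, anaerobic minus aerobic, for each large subunit (left) and small subunit (right) gene, ordered by the mean of the strains (grey bars); points are AAC, AAP and NC. All bars lie below 0, from -1.01 for MRPL4 to -0.32 for MRPL39 in the large subunit and from -0.98 for RSM28 to -0.33 for MRPS16 in the small subunit.

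The same direction held in each strain on its own. In AAC, 65 members fell (22.8% of all probe sets were called lower), in AAP 65 fell (17.2%), and in NC 64 fell (28.0%). Of the members, 64 fell in all 3 strains, against 12.5% of all probe sets. MRPS16 in NC, at -0.21 (adjusted p = 0.0908, limma), was the one that did not pass. The median log2 differences of the large subunit were -0.62 in AAC, -0.55 in AAP and -0.64 in NC. Those of the small subunit were -0.67 in AAC, -0.55 in AAP and -0.68 in NC. In AAP, leaving out replicate 3 of the aerobic group kept 65 members called, with medians of -0.55 for the large and -0.57 for the small subunit.

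Averaged over the members, the array means showed how little the replicates scattered around this shift. The mean log2 signal over the 65 members was 7.83 ± 0.0393 in anaerobic AAC, against 8.46 ± 0.0655 in aerobic AAC (SD, n = 3 each). It was 7.91 ± 0.0334 in anaerobic AAP, against 8.48 ± 0.0215 in aerobic AAP, where replicates 1 and 2 alone averaged 8.49. It was 7.96 ± 0.0205 in anaerobic NC, against 8.59 ± 0.0243 in aerobic NC. No anaerobic array reached the range of the aerobic arrays. Both subunits shifted together: the mean of the large subunit minus that of the small subunit was 0.14, 0.12 and 0.13 in anaerobic AAC, AAP and NC, and 0.11, 0.10 and 0.10 in aerobic AAC, AAP and NC.

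**Figure D2:**
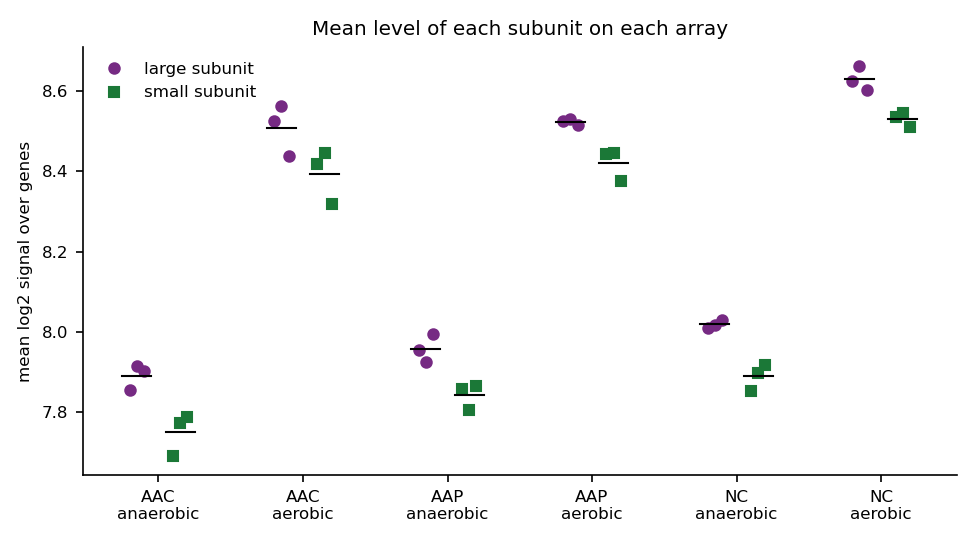
Mean log2 signal over the 37 large subunit genes (circles) and the 28 small subunit genes (squares) on each array, with the mean of the 3 arrays as a line, for AAC, AAP and NC with anaerobic left of aerobic. The 2 subunits move down together without oxygen, and the 3 arrays of each group lie close together compared with the gap between conditions.

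Among large subunit members, the largest fall was that of MRPL4. It encodes uL29m, a protein at the outer end of the exit tunnel, where newly made chains leave the ribosome. Its log2 signals were 7.02, 6.95 and 7.10 in anaerobic AAC, 7.10, 7.02 and 7.13 in anaerobic AAP and 7.19, 7.10 and 7.11 in anaerobic NC. In the aerobic cultures they were 8.15, 8.14 and 7.84 in AAC, 7.99, 8.11 and 7.94 in AAP and 8.18, 8.27 and 8.14 in NC. The highest anaerobic array stood well below the lowest aerobic one. The log2 difference was -1.01 ± 0.0427 (SE), a 2.01-fold fall (adjusted p = 7.85e-12, limma). MRP20, which encodes uL23m, the neighbour of uL29m at the tunnel exit, was at the other end of the range. Its fall was -0.35 ± 0.0401 on the log2 scale (adjusted p = 1.84e-06, limma).

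The next largest falls in the large subunit were in MRPL32, MRPL20, MRPL44 and MRPL51. The last 3 encode mL58, mL53 and mL43, which have no bacterial counterpart. MRPL20 fell by 0.78, MRPL44 by 0.77 and MRPL51 by 0.76 on the log2 scale, and in all 3 the anaerobic arrays lay below all aerobic arrays. MRPL32 encodes bL32m, a protein trimmed by the m-AAA protease before it is assembled. It fell by 0.82 ± 0.0970 (SE), but its replicates disagreed. Its log2 signals were 7.95, 8.16 and 8.46 in anaerobic AAC, 8.23, 8.28 and 8.05 in anaerobic AAP, and 8.22, 8.78 and 9.15 in anaerobic NC, against aerobic values that all lay between 9.07 and 9.30. The highest anaerobic NC array thus lay within the aerobic AAP range and below every aerobic AAC and NC array. The oxygen difference was -0.98 in AAC, -0.97 in AAP and -0.51 in NC, and the strains did not pass a test of its change (adjusted p = 0.295 for AAC and NC and 0.189 for AAP and NC, limma).

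The smallest falls in the large subunit were those of MRPL27 (mL41) at -0.35, MRP20 at -0.35 and MRPL39 (bL33m) at -0.32. MRPL39 had log2 signals of 8.74, 8.88 and 8.83 in anaerobic AAC, 8.88, 8.95 and 8.90 in anaerobic AAP, and 8.96, 9.15 and 9.17 in anaerobic NC. The aerobic values were 9.18, 9.20 and 9.11 in AAC, 9.32, 9.19 and 9.21 in AAP, and 9.37, 9.38 and 9.36 in NC. Within each strain the conditions did not overlap, but anaerobic NC reached into the aerobic AAC range. Its adjusted p was 4.23e-07 (limma). MRP7 and MRP49 are further large subunit genes whose symbols do not give the subunit. MRP7, for bL27m near the peptidyl transferase centre, fell by 0.70, and MRP49, for mL61, fell by 0.39.

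In the small subunit RSM28 changed most. RSM28 encodes mS46, a protein linked by genetics to translation of the cytochrome oxidase messenger RNAs. Its log2 signals were 7.39, 7.40 and 7.64 in anaerobic AAC, 7.50, 7.42 and 7.50 in anaerobic AAP, and 7.54, 7.41 and 7.52 in anaerobic NC. In the aerobic cultures they were 8.58, 8.49 and 8.29 in AAC, 8.40, 8.49 and 8.41 in AAP, and 8.46, 8.56 and 8.44 in NC. The conditions were far apart in all 3 strains, which were nearly alike: -0.98 in AAC, -0.96 in AAP and -0.999 in NC. The mean difference was -0.98 ± 0.0436 (SE), a 1.97-fold fall (adjusted p = 1.41e-11, limma).

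Next in order were MRPS17 (uS17m) at -0.86, MRPS35 (mS45) at -0.84, MRP4 (uS2m) at -0.84 and RSM23 at -0.82. RSM23 encodes mS29, the yeast relative of the GTP-binding protein DAP3 of animals. RSM23 read 7.61 on the array labelled AAP aerobic replicate 3, against 8.19 and 8.27 on AAP aerobic replicates 1 and 2, and that array still lay above every anaerobic one, of which the highest was 7.39. MRP1 and RSM26 encode the related proteins mS43 and mS42, both of the superoxide dismutase fold. MRP1 fell by 0.64 and RSM26 by 0.79.

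The smallest falls in the small subunit were those of MRPS5 (uS5m, at the entry of the messenger RNA) at -0.37, MRP17 (bS6m) at -0.35 and MRPS16 (bS16m) at -0.33. MRPS16 had log2 signals of 8.25, 8.39 and 8.51 in anaerobic AAC, 8.43, 8.40 and 8.49 in anaerobic AAP, and 8.31, 8.73 and 8.80 in anaerobic NC. The aerobic values were 8.70, 8.87 and 8.79 in AAC, 8.78, 8.78 and 8.89 in AAP, and 8.90, 8.78 and 8.79 in NC. AAC and AAP separated by condition and NC did not. Its adjusted p over the mean of the strains was 0.000139 (limma).

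Members with bacterial relatives and members found only in mitochondria fell to a similar degree. In the large subunit the median was -0.61 over 23 members with a bacterial homolog and -0.59 over 14 mitochondria-specific members. In the small subunit it was -0.59 over 17 and -0.67 over 10, with RSM22 not classed. The gap in the small subunit was widest in NC, where the medians were -0.46 with a bacterial homolog and -0.76 without, and was absent in AAP, at -0.55 for both. Without AAP aerobic replicate 3 the medians in AAP were -0.56 with a bacterial homolog and -0.59 without. No test was made of these differences.

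The fall differed with coding length, which the choice of members did not use. Lengths ran from 213 to 1887 bases. The shortest 21 members, of at most 474 bases, had a median log2 difference of -0.47, and the longest 21, of at least 846 bases, had -0.66. Across the 65 members the difference correlated with log2 length at r = -0.515 in AAC, -0.133 in AAP and -0.68 in NC, while over all probe sets r was -0.102, 0.102 and -0.051. In AAP, without replicate 3 of the aerobic group, r was -0.25 over the members. These points share their arrays, so r describes the members and is not a test. After a smooth trend on length over all probe sets was removed from each array, r over the members was -0.452 in AAC, -0.334 in AAP and -0.575 in NC. With single arrays left out, r over the members ran from -0.614 to -0.38 in AAC, from -0.25 to -0.018 in AAP and from -0.703 to -0.603 in NC.

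**Figure D3:**
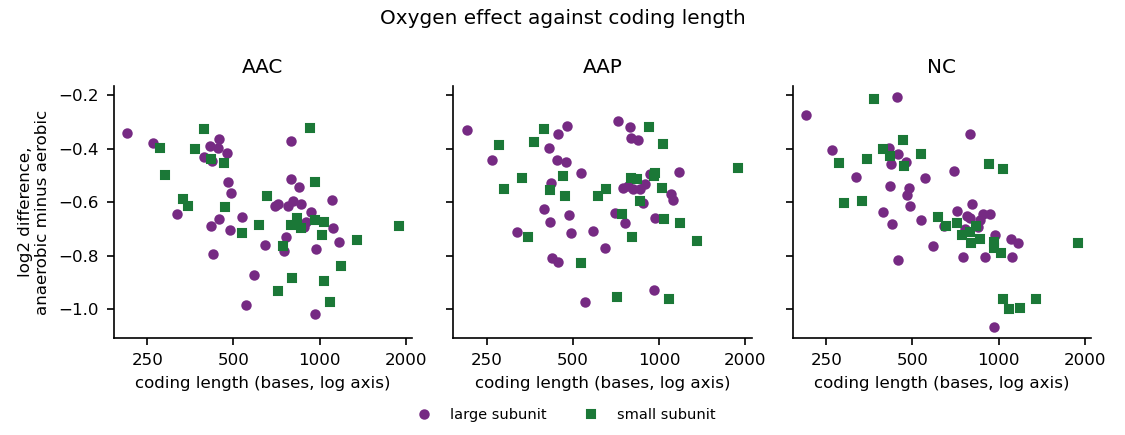
Log2 difference, anaerobic minus aerobic, of each member against coding length in bases on a log axis, in AAC, AAP and NC; circles are large and squares small subunit genes. Longer genes lie lower in AAC and NC (r = -0.515 and -0.68), and the cloud is nearly flat in AAP (r = -0.133).

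Some members differed between anaerobic replicates in the same way in NC and AAC. Anaerobic NC replicate 1 read more than 0.3 log2 units below the mean of replicates 2 and 3 for 8 members and above it by as much for 3, against 5.31% and 4.53% of all probe sets. The 8 were MRPL32, MRP21, MRPS17, MRP2, MRPS16, MRPL37, MRPL51 and MRPL49, named after their values were seen. MRP2, for uS14m, had 8.05, 8.64 and 8.74 in anaerobic NC, and MRP21, for bS21m, had 7.26, 7.87 and 8.09. Anaerobic AAC replicate 1 was also below the mean of its replicates 2 and 3 for all 8, by 0.36 for MRPL32 and 0.46 for MRP2, as it was for 48 of the 65 members and 42.6% of all probe sets. The 21 shortest members deviated from their group means by -0.103 on average on anaerobic NC replicate 1 and by -0.0899 on anaerobic AAC replicate 1.

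The order of the members by size of fall was only partly shared between strains. Over the 65 members the oxygen differences of AAC and AAP correlated at 0.781, those of AAC and NC at 0.739 and those of AAP and NC at 0.479. Over all probe sets the values were 0.912, 0.918 and 0.869. Without AAP aerobic replicate 3 the members' correlations were 0.812 for AAC and AAP and 0.565 for AAP and NC, against 0.915 and 0.909 over all probe sets. The strains share no arrays, and the members span a far narrower range than all probe sets, with an SD of 0.171 in AAC, 0.168 in AAP and 0.186 in NC against 0.515, 0.505 and 0.57.

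The strength of the oxygen difference was tested for a change between strains. Between AAC and NC no member passed (2.87% of all probe sets did). At an unadjusted p under 0.05 in limma were 1 member and 1028 of the 5498 probe sets. With single arrays left out, 0 to 2 members passed the adjusted threshold. Between AAP and NC 2 members passed (12.5%), MRPL17 and RSM22, both with a smaller fall in AAP. Between AAC and AAP 1 member passed (3.55%), MRP51, with a larger fall in AAC. These shares lie below those of all probe sets. Between AAP and NC that order turned without anaerobic NC replicate 1, when 20 members (30.8%) and 24.3% of all probe sets passed. With any other single array left out, 1 to 7 members passed, the 7 without AAP aerobic replicate 2, when 21.7% of all probe sets did. Without AAP aerobic replicate 3, 1 member passed between AAP and NC (9.91% of all probe sets) and 1 between AAC and AAP (5.20%). Between AAC and AAP it was 0 or 1 with single arrays left out.

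RSM22 encodes a methyltransferase-like protein of the small subunit. Its log2 signals were 6.84, 6.91 and 6.89 in anaerobic AAP and 6.68, 6.72 and 6.73 in anaerobic NC. In the aerobic cultures they were 7.36, 7.32 and 7.38 in AAP and 7.44, 7.50 and 7.44 in NC. AAP was above NC on every anaerobic array and below it on every aerobic array. The oxygen differences were -0.47 in AAP and -0.75 in NC, and differed by 0.28 ± 0.0621 (SE; adjusted p = 0.0138, limma). Without AAP aerobic replicate 3 the value was 0.29 (adjusted p = 0.0137), and with the length trend removed it was 0.18 (adjusted p = 0.0892).

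MRPL17 encodes mL46. Its log2 signals were 7.70, 7.67 and 7.73 in anaerobic AAP and 7.63, 7.51 and 7.44 in anaerobic NC, and 8.12, 8.16 and 7.92 in aerobic AAP and 8.14, 8.28 and 8.22 in aerobic NC. The lowest AAP aerobic value came from the array that stood apart. The oxygen differences of -0.37 in AAP and -0.69 in NC differed by 0.33 ± 0.0902 (adjusted p = 0.0323, limma), and by 0.25 without that array (adjusted p = 0.0506). The call was lost in 10 of 19 alternatives. MRP51 encodes bS1m, linked by genetics to the leaders of mitochondrial messenger RNAs. It had 8.39, 8.40 and 8.39 in anaerobic AAC, 8.66, 8.63 and 8.56 in anaerobic AAP, 9.06, 9.02 and 9.12 in aerobic AAC and 8.93, 8.999 and 9.07 in aerobic AAP. The anaerobic arrays of the 2 strains were apart and the aerobic ones overlapped. Its oxygen differences of -0.67 in AAC and -0.38 in AAP differed by -0.29 ± 0.0741 (adjusted p = 0.0425, limma), a call lost in 14 of 19 alternatives. Without AAP aerobic replicate 3 they differed by -0.33 (adjusted p = 0.0197).

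Differences between strains within a condition were small. In aerobic cultures AAC minus NC had a median of -0.14 over the members, against -0.02 over all probe sets, and 61 of 65 members were below 0. Past the threshold, 15 members were lower and 1 was higher, together 16 of 65, where 19.4% of all probe sets were called, 9.99% lower and 9.42% higher. The lower ones were 7 large and 8 small subunit genes, 23.1% of the members. With the replicate number as a block, 34 members (52.3%) and 37.8% of all probe sets were called. Leaving out single arrays gave 3 to 20: 7, 15 and 4 without AAC replicates 1, 2 and 3, and 7, 3 and 5 without NC replicates 1, 2 and 3. The share of members was then near or below that of all probe sets in several cases, at 4.62% against 10.2% without NC replicate 2 and 6.15% against 10.5% without AAC replicate 3. Without AAC replicate 2 it was above it, at 23.1% against 13.6%. With 20 members it was 30.8% against 30.0%, without AAP aerobic replicate 3.

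The aerobic call with the smallest adjusted p among those named was MRPL1, for uL1m of the stalk that guides spent transfer RNA. It had 8.12, 8.17 and 7.998 in aerobic AAC, against 8.38, 8.39 and 8.33 in aerobic NC, and the groups did not overlap. The log2 difference was -0.27 ± 0.0477 (SE; adjusted p = 0.00240, limma), and the call held in all 14 alternatives. MRPL35, for mL38, differed by -0.28 (adjusted p = 0.0412), a call lost in 6 of 14 alternatives, and MRPS5 by -0.26 (adjusted p = 0.0205), lost in 3. The cytosolic ribosomal protein genes, listed for comparison, moved the same way in this contrast, with 65 of 142 probe sets lower and a median of -0.17.

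In aerobic AAP against NC no member passed in limma, where 0.200% of all probe sets did, although 59 of 65 members were below 0. The members share their arrays, so this count, like the other counts of members below 0, is a description and not a test. An unadjusted p under 0.05 in limma was found for 22 members and for 515 of the 5498 probe sets. Leaving out single arrays gave 0 to 2 calls, the 2 without AAP aerobic replicate 2 (3.08% of members, 1.09% of all probe sets). Without AAP aerobic replicate 3 it was 0 members and 0.600% of all probe sets. In aerobic AAC against AAP no member passed either (3.97% of all probe sets). At an unadjusted p under 0.05 in limma were 2 members and 1165 of the 5498 probe sets. Without the array labelled AAP aerobic replicate 3, 6 members passed and 28.1% of all probe sets did. Of the 6, RSM23, MRPL20, MRPS5 and MRPL7 were lower in AAC and MRPL16 and MRPL31 were higher.

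Without oxygen the array means of the strains did not overlap on the deposited scale. The mean over the members was 7.79 to 7.85 on the AAC arrays, 7.87 to 7.94 on the AAP arrays and 7.94 to 7.98 on the NC arrays. The highest AAP array lay just below the lowest NC array (7.939 against 7.941), and AAC lay lowest. The medians of all probe sets on these arrays also differed by strain. They were 7.08 to 7.10 in AAC, 7.12 in AAP and 7.09 to 7.11 in NC, and were not subtracted from the member means. In anaerobic AAC against NC, 8 members were lower and 1 was higher, with a median of -0.12 and 62 of 65 below 0. Of all probe sets 12.0% were called, 5.29% lower and 6.71% higher, so 12.3% of the members were lower against 5.29%. In anaerobic AAP against NC 3 were lower and 1 was higher, where 21.0% of all probe sets were called, 8.06% lower and 12.9% higher. In anaerobic AAC against AAP 12 were lower and 1 was higher, where 33.0% of all probe sets were called, 19.7% lower and 13.3% higher. In the last pair of comparisons the members' shares lay below those of all probe sets, with exceptions under other settings given with the calls.

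Among the 8 members called lower in anaerobic AAC than in NC, MRPL20 differed most. MRPL32, with the scattered replicates given above, was lower by more and did not pass. MRPL20 had 7.36, 7.40 and 7.48 in AAC, against 7.74, 7.81 and 7.87 in NC, and anaerobic AAP lay between at 7.67, 7.62 and 7.68. The 3 strains did not overlap. For MRPL20, AAC minus NC was -0.39 ± 0.0978 (SE; adjusted p = 0.0162, limma), a call lost in 4 of 14 alternatives. MRPL7, for uL5m, differed by -0.29 (adjusted p = 0.0128, lost in 2) and MRPL39 by -0.28 (adjusted p = 0.00470, lost in 1).

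In anaerobic AAP against NC, MRPL27 differed by -0.23 (adjusted p = 0.0379), MRPL39 by -0.19 (adjusted p = 0.0305) and RSM22 by 0.17 (adjusted p = 0.0163, limma). These calls were lost in 8, 9 and 4 of 14 alternatives. Leaving out NC replicate 1 gave 22 members in place of 4, leaving out any other anaerobic array of AAP or NC left 0 or 1, and dropping AAP aerobic replicate 3, which is in neither group but enters the shared spread, gave 10. Of all probe sets 31.5% were called without NC replicate 1, against 33.8% of the members, and 31.8% without AAP aerobic replicate 3, against 15.4%. With the other arrays left out it was at most 16.4%. In anaerobic AAC against NC the count of 9 became 22 without NC replicate 1, 18 without AAC replicate 3, 4 without AAC replicate 1, 5 without AAC replicate 2 and 4 without NC replicate 2. The members' share was 33.8% against 18.9% of all probe sets without NC replicate 1 and 27.7% against 14.5% without AAC replicate 3. It was 6.15% against 6.55% without AAC replicate 1 and 6.15% against 5.93% without NC replicate 2.

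In anaerobic AAC against AAP the named members were RSM25 (mS23), MRPL3 and MRPL8. RSM25 had 6.79, 6.75 and 6.75 in AAC, against 7.06, 6.99 and 7.09 in AAP, without overlap. It differed by -0.28 ± 0.0744 (SE; adjusted p = 0.00956, limma), and the call held in all 14 alternatives. MRPL3, for mL44, a protein related to ribonuclease III, differed by -0.30 (adjusted p = 0.0139, lost in 3), and MRPL8, for bL17m, by -0.32 (adjusted p = 0.0221, lost in 4). Without AAP replicate 3 the count of 13 became 7, or 10.8% against 30.5% of all probe sets, and with the length trend removed it became 31, or 47.7% against 32.0%. Without AAP aerobic replicate 3 it was 18, or 27.7% against 41.4%.

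MRPL31 was higher in AAC, the opposite of the other members called in AAC against NC. It encodes mL60, a large subunit protein without a bacterial relative. Its log2 signals were 9.31, 9.58 and 9.25 in anaerobic AAC, 8.73, 8.70 and 8.73 in anaerobic AAP, and 8.60, 8.58 and 8.49 in anaerobic NC. In the aerobic cultures they were 9.75, 9.96 and 9.72 in AAC, 9.12, 9.06 and 9.87 in AAP, and 9.21, 9.28 and 9.10 in NC. AAC stood above both other strains on every array, except that the array labelled AAP aerobic replicate 3 read like AAC. AAC minus NC was 0.82 ± 0.154 without oxygen (SE; adjusted p = 0.00286, limma) and 0.62 ± 0.154 with oxygen (adjusted p = 0.0134). AAC minus AAP without oxygen was 0.66 ± 0.154 (adjusted p = 0.00522).

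The aerobic call for MRPL31 was lost without AAC aerobic replicate 2 (adjusted p = 0.0521) or NC aerobic replicate 3 (adjusted p = 0.0538), and its adjusted p was 4.32e-05 when AAP aerobic replicate 3 was dropped. Without that array AAC minus AAP with oxygen was 0.72 (adjusted p = 3.45e-05). MRPL31 was itself among the members that fell without oxygen, by 0.43 in AAC, 0.63 in AAP and 0.64 in NC. In AAP the log2 difference was -0.37 without the array that stood apart (adjusted p = 0.00372, limma).

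The neighbours of MRPL31 on chromosome XI behaved the same way. It lies in a run of 29 consecutive probe sets, from GPM1 to VPH2, that were all higher in AAC than in NC in both conditions. The run was defined from these values, so it is a description without a test. Its median log2 difference, AAC minus NC, was 0.62 without oxygen and 0.75 with oxygen, against 0.00 and -0.02 in the other 264 probe sets of the chromosome. Of the 29, 24 were called higher without oxygen (6.71% of all probe sets were) and 27 with oxygen (9.42%). AAP minus NC without oxygen had a median of -0.03 in the run. The genes of the run have varied functions, among them the respiratory chain subunits SDH1 and SDH3, the glycolytic enzyme GPM1 and the myosin MYO3.

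The other 6 members on chromosome XI were not higher in AAC, with medians of -0.08 without oxygen and -0.14 with oxygen. The array labelled AAP aerobic replicate 3 exceeded the mean of AAP aerobic replicates 1 and 2 in 28 of the 29 probe sets of the run, with a median of 0.78. The number of DNA copies of the region was not measured.

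**Figure D4:**
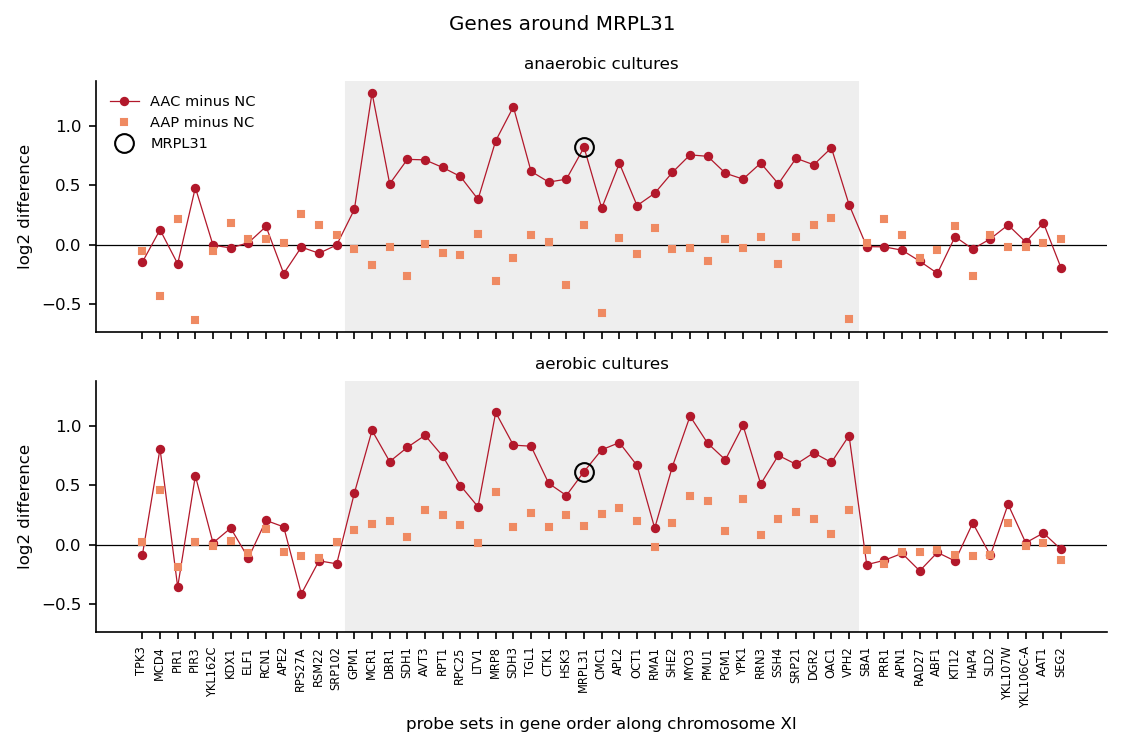
Log2 difference of AAC minus NC (circles joined by a line) and AAP minus NC (squares) for probe sets in gene order along chromosome XI around MRPL31 (ringed), in anaerobic (top) and aerobic (bottom) cultures; the shaded run holds 29 probe sets. AAC minus NC is above 0 throughout the run and drops at both ends, while AAP minus NC scatters around 0 without oxygen; the aerobic AAP means include the array labelled replicate 3.

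Most other genes of mitochondrial translation listed here also fell, with MTG1, CBS1 and SOV1 as exceptions. Over the mean of the strains, 30.4% of all probe sets were called lower. Mitochondrial ribosomal proteins whose genes have other names fell in 13 of 13 measured cases, with a median of -0.49 over the mean of the strains. They include RML2 (uL2m) at -1.11, NAM9 (uS4m) at -0.88, MHR1 at -0.65 and IMG2 at -0.62. EHD3 fell least, at -0.07, with means of 5.69 without and 5.76 with oxygen, near the background of 5.58. It was not called in AAC or AAP (adjusted p = 0.128 and 0.550, limma). VAR1, encoded in mitochondrial DNA, was not analysed here. All 9 translation factors fell, with a median of -0.63. FMT1 fell least, at -0.06, and was not called in NC or AAP (adjusted p = 0.324 and 0.401, limma). The elongation factors MEF1, which moves the ribosome along, and TUF1, which brings in charged transfer RNA, fell furthest, by 1.63 (3.10-fold) and 1.20. The release factor MRF1 fell by 0.70 and the initiation factor IFM1 by 0.63.

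Of 14 mitochondrial aminoacyl-tRNA synthetases, which charge transfer RNA with amino acids, 14 fell, with a median of -0.62. MSY1 and MSK1, for tyrosine and lysine, each fell by 0.90. Of 7 measured genes for ribosome assembly and rRNA modification, 6 fell, with MAM33 at -0.93, the RNA helicases MSS116 at -0.84 and MRH4 at -0.55, and the rRNA methyltransferase MRM1 at -0.71. MTG1, a GTPase of ribosome assembly, did not pass (adjusted p = 0.934, limma). Of 14 activators that act on single mitochondrial messenger RNAs, 12 fell, with a median of -0.37. CBS1 was at -0.03 (adjusted p = 0.355) and SOV1 at -0.05 (adjusted p = 0.250, limma). The largest named falls there were CBP6, which acts on cytochrome b, at -0.85 and AEP2, which acts on ATP synthase subunit 9, at -0.79. All 4 genes for membrane insertion fell, led by MDM38 at -1.05 and MBA1 at -0.998, both of which bind the ribosome to the inner membrane, with the insertase OXA1 at -0.38 and COX18 at -0.26.

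Genes for the upkeep and transcription of mitochondrial DNA did not move as a group. The RNA polymerase RPO41 fell by 0.68 and its specificity factor MTF1 by 0.36. The DNA-packaging protein ABF2 rose by 0.25 and the DNA polymerase MIP1 by 0.16 over the mean of the strains. ABF2 did not pass in AAP, at 0.10 (adjusted p = 0.304, limma). MIP1 passed in AAP alone, at 0.34, against 0.0025 in NC and 0.13 in AAC. The AAP values include the array labelled aerobic replicate 3. Among regulators, HAP4, the activating subunit of the HAP complex that drives respiratory genes, fell by 1.46, the heme-responsive HAP1 rose by 1.09, and PUF3 fell by 0.22. PUF3 did not pass in AAP, at -0.05 (adjusted p = 0.713, limma).

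The 22 respiratory chain genes fell much further than the ribosomal proteins, all 22 past the threshold with a median of -2.35. CYC1 among them was at the background level without oxygen, so its own fall has no measured size. Over the mean of the strains, the genes of the cytosolic ribosome did not share the fall. They have 142 probe sets for 122 genes, which include near-identical gene pairs that the arrays may not tell apart. Of the 142, 13 fell, 3 rose and the median was -0.02, where 30.4% of all probe sets were called lower. In NC alone 53 of the 142 fell with a median of -0.13, a larger share than the 28.0% of all probe sets called lower there. In AAC 15 rose and the median was 0.04. The lists were drawn up with earlier results of these data known, and no test was made over a list.

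**Figure D5:**
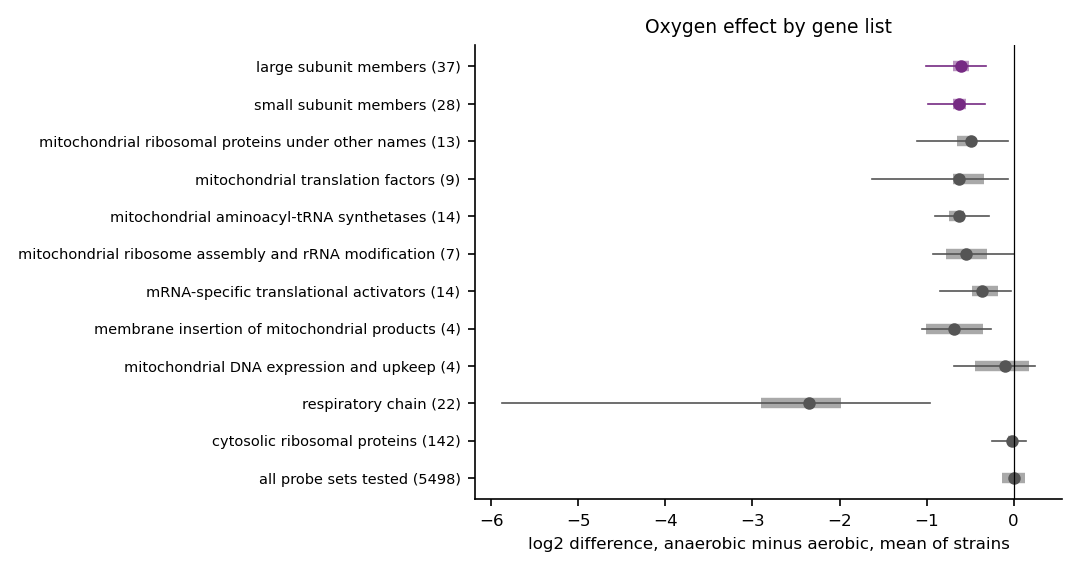
Log2 difference, anaerobic minus aerobic, mean of the strains, for the large and small subunit members, related gene lists and all probe sets (number of probe sets in brackets); dots are medians, thick bars quartiles and thin lines the full range (not drawn for all probe sets). The mitochondrial translation lists have medians from -0.69 to -0.37, the respiratory chain lies at -2.35, and the cytosolic ribosomal proteins and all probe sets lie near 0.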

How the data were processed

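Biotin-labelled cRNA from 250 ng of total RNA of each of 18 cultures was hybridised to Affymetrix Yeast Genome 2.0 arrays, per the labels' protocols. The deposited values are log2 signals, 1 per probe set and array, a scale read from their range of 4.85 to 12.81. Use of PLIER and R 2.10.1 is named in the submitters' processing notes, but neither the background correction nor the normalization. The number of arrays limits the precision.

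Genes came from the platform annotation, with 12 symbols updated through a current gene table, none of them a member. Of 10928 probe sets, 7244 map to 1 gene, 1 to several and 3683 to none there. The 5498 S. cerevisiae probe sets with 1 gene (5449 genes) were tested, and background was the 95th percentile of 1746 S. pombe probe sets. Coding lengths and gene order came from RefSeq's gene table.

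All 18 arrays entered a single limma 3.58.1 model (R 4.3.3, lmFit and eBayes) that has a mean for each group and leaves 12 residual degrees of freedom. Tests were two-sided with Benjamini-Hochberg adjustment over all probe sets at 0.05. On simulated data for the oxygen effect in NC, with 5498 probe sets, 94 of 100 changes of 0.5 and 99 of 100 changes of 1 on the log2 scale were recovered, with 13 false among 206 calls. The simulated noise was independent for each probe set and array. It therefore does not cover deviations shared between probe sets or arrays, nor changes smaller than 0.5.

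The members, lists and tests were chosen with earlier results of these data known. Named are, in each subunit, the 5 largest and 3 smallest oxygen differences; in each strain comparison, up to 3 called members each way whose arrays do not overlap; each called change between strains in the oxygen difference, up to 3 each way; MRP1, MRP7, MRP20, MRP49 and RSM26; and up to 4 genes of each related list by p-value. Replicate numbers in the labels were checked for pairing, with r of at least 0.1 in all 3 pairs of same-numbered arrays as the limit. It was reached for aerobic AAC and NC (r from 0.126 to 0.326) and aerobic AAC and AAP (0.168 to 0.456), and in no other comparison. For anaerobic AAC and NC, r was 0.645, -0.0239 and 0.459 for replicates 1, 2 and 3. Alternatives were quantile normalization, median centring, leaving out dim probe sets, trended robust variances, a replicate block, fits restricted to the groups in question, removal of a length trend (loess, span 0.5) and leaving out each array. Protein and promoter sequences were not used here.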

Additional observations from a re-analysis of the deposited data

Results flagged for a closer look

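In 3 members the oxygen difference, anaerobic minus aerobic, itself differed between strains in limma's test of that difference. Between AAP and NC 3.08% of the members passed, against 12.5% of all probe sets. Between AAC and AAP it was 1.54% against 3.55%, so the members passed less often than probe sets at large. RSM22 fell less in AAP than in NC, by 0.28 on the log2 scale (-0.47 against -0.75). MRPL17 also fell less in AAP than in NC, by 0.33 (-0.37 against -0.69). MRP51 fell more in AAC than in AAP, the difference being -0.29 (-0.67 against -0.38). Over the alternatives the adjusted p ranged from 0.0126 to 0.0892 for RSM22, from 0.0104 to 0.0797 for MRPL17 and from 0.0197 to 0.119 for MRP51. The calls were lost in 1, 10 and 14 of 19 alternatives.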

How the results depend on the processing

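The oxygen calls kept their direction throughout: with single arrays left out, 65 to 65 members were called over the mean of the strains, 60 to 65 in NC, 64 to 65 in AAC and 64 to 65 in AAP, and the medians ranged from -0.62 to -0.60 in the large and from -0.64 to -0.61 in the small subunit. Quantile normalization gave a small subunit median of -0.58. Counts between strains moved much more. Brackets give the share of members called and then that of all probe sets. In aerobic AAC against NC, the 16 calls became 10 with quantile normalization (15.4%, 18.3%). They became 34 with the replicate block (52.3%, 37.8%) and 31 in a fit to only the groups compared (47.7%, 37.8%). With single arrays left out they were 3 (4.62%, 10.2%) to 20 (30.8%, 30.0%). In anaerobic AAC against NC, the 9 calls became 19 with the length trend removed (29.2%, 13.9%). They became 18 with the replicate block (27.7%, 14.3%) and 5 in a fit to only the groups compared (7.69%, 8.66%). With single arrays left out they were 4 to 22, the 22 without NC replicate 1 (33.8%, 18.9%). In anaerobic AAP against NC, the 4 calls became 0 with the block (0%, 14.1%) and 2 in a fit to only the groups compared (3.08%, 17.4%). They became 10 without AAP aerobic replicate 3 (15.4%, 31.8%). With single arrays left out they were 0 to 22, the 22 without NC replicate 1 (33.8%, 31.5%). In anaerobic AAC against AAP, the 13 calls became 31 with the length trend removed (47.7%, 32.0%). With single arrays left out they were 7 (10.8%, 30.5%) to 18 (27.7%, 41.4%). In aerobic AAP against NC the count was 0 to 2 (3.08%, 1.09%), and in aerobic AAC against AAP 0 to 6 (9.23%, 28.1%), with single arrays left out. For the oxygen difference between AAP and NC, the 2 calls became 8 with the length trend removed (12.3%, 14.1%). They became 1 with the block (1.54%, 6.78%) and 1 in a fit to only the groups compared (1.54%, 5.60%). With single arrays left out they were 1 to 20, the 20 without anaerobic NC replicate 1 (30.8%, 24.3%). Between AAC and AAP the 1 call became 0 with quantile normalization, median centring, trended robust variances, the block or only the groups compared. Of all probe sets 0.746% to 3.42% were called there. With single arrays left out the count was 0 to 1. Between AAC and NC it was 0 to 2, the 2 without anaerobic NC replicate 1 (3.08%, 4.24%). Among named members, 676 of the alternative values kept their side of the threshold, 71 lost it and 0 changed sign. The cause of these changes was not tested. With the replicate block 65 members were still called over the mean of the strains. Only in the aerobic AAC comparisons did same-numbered arrays reach r of 0.1 in all 3 pairs. In anaerobic AAC against NC, replicates 1 and 3 deviated together (r = 0.645 and 0.459) and replicate 2 did not (r = -0.0239). No member had a mean below background, but the lowest member signal was 6.62 against a background of 5.58, and compression of low signals was not tested.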
